A study of Sus scrofa with 6 samples.

Results

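Interferon regulatory factors (IRFs) are transcription factors that bind the promoters of interferon and interferon-stimulated genes. The genes described here were taken by symbol from a list of 5 factors, IRF1, IRF2, IRF3, IRF5 and IRF8. Of the 5, 4 had exactly 1 row each among the 11564 genes of the deposited table, and IRF8 was not analysed here. The expression values come from RNA-seq of peripheral blood mononuclear cells (PBMCs), the lymphocytes and monocytes separated from blood, of Yorkshire pigs at 6 months of age. Of the 6 libraries, 3 are labelled wild type and 3 leptin transgenic (Leptin-overexpressing in the labels), and no treatment is given for either group. The transgenic pigs carry pig leptin, according to the study under a leptin promoter, and were cloned by nuclear transfer from transfected, drug-selected fetal fibroblasts. The wild type animals are given as free of the transgene. Each library has its own code in the labels, and the p-values below measure the spread between these libraries.

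LEP, the leptin gene, had 50.0 and 0.118 FPKM (fragments scaled to transcript length and sequencing depth) in the libraries labelled wild type replicates 1 and 3, and replicate 2 listed it at 0. Among the leptin transgenic libraries, replicates 2 and 3 had 18.3 and 39.3 FPKM and replicate 1 listed it at 0. Both replicate 1 libraries therefore go against their labels, and every direction below is that of the libraries as labelled. T cell CD3E (213 to 372 FPKM), B cell CD79A (133 to 248 FPKM) and monocyte CD14 (99.9 to 291 FPKM) were present in each library, and the neutrophil-type calgranulin S100A8 stood at 699 FPKM in wild type replicate 1 against 66.5 to 225 FPKM in the other libraries. The table holds no read counts, so the depth behind each value is unknown and precision rests on 3 libraries per label.

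IRF1 is an activator induced by interferon-gamma, and drives antigen processing genes and cell cycle arrest. IRF2 binds the same promoter sites and mostly opposes IRF1. IRF3 is made constitutively and waits in the cytoplasm until kinases such as TBK1 phosphorylate it, after which it switches on interferon-beta. IRF5 acts below Toll-like receptors and MYD88 in monocytes, dendritic cells and B cells, where it drives proinflammatory cytokines, and variants of the human gene are associated with lupus. IRF7 and IRF9, which are themselves interferon-stimulated, are given beside them for comparison.

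All 4 factors were abundant PBMC transcripts. IRF1 was the highest, at 235.9 ± 40.8 FPKM (SD over 6 libraries), followed by IRF5 at 166.1 ± 24.3, IRF3 at 106.1 ± 18.7 and IRF2 at 96.0 ± 11.0 FPKM. Within single libraries IRF1 lay between the percentiles 96.4 and 97.9 of the 10735 genes tested, and IRF2, the lowest of the 4, between the percentiles 92.1 and 93.9. IRF1 exceeded IRF5 in 6 of 6 libraries, by 1.17 to 2.06 times. IRF5 likewise exceeded IRF3 in 6 of 6 libraries, by 1.13 to 1.98 times. In an exact sign-flip permutation test of the within-library log2 ratio, both steps gave p = 0.0312, the smallest that 6 libraries allow (adjusted p = 0.0468 over the 3 neighbouring pairs). The pairs and the direction of each step were set by the means of the same 6 libraries, so these p-values are no independent test of the order. IRF3 exceeded IRF2 in 4 of 6 libraries, with ratios from 0.838 to 1.40 over all 6, and these neighbours did not differ beyond their spread (exact p = 0.281, mean log2 ratio 0.13 ± 0.27, SD). IRF7 (195.3 ± 94.2 FPKM) and IRF9 (182.1 ± 24.5 FPKM) had means between those of IRF1 and IRF5. FPKM is scaled by transcript length, so these levels can be set beside each other as far as the gene models used for counting are complete.

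**Figure D1:**
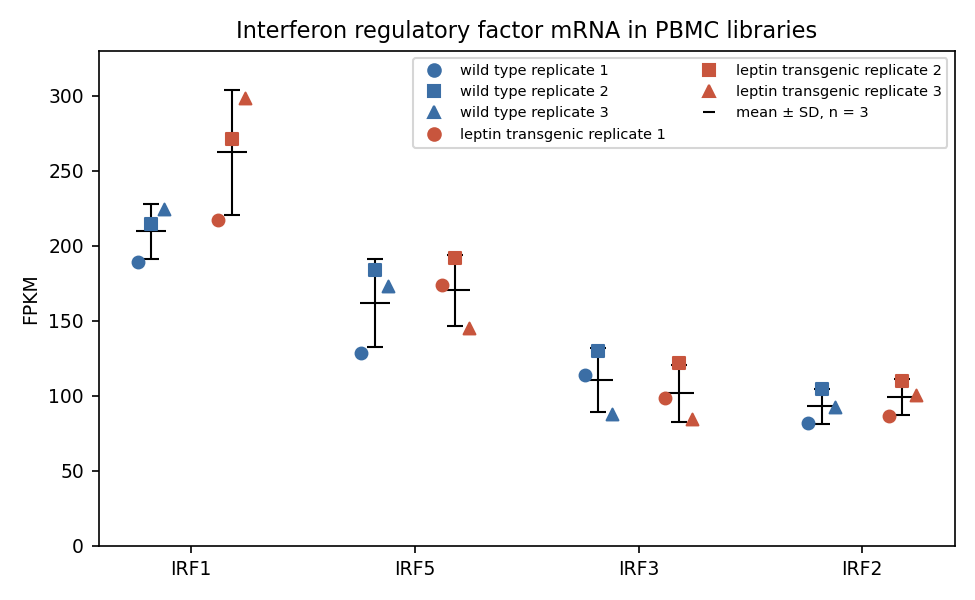
FPKM of IRF1, IRF5, IRF3 and IRF2 in the 6 PBMC libraries, by genotype label (colour) and replicate number (symbol), with the mean and SD of 3 libraries as black bars. IRF1 is the highest factor in both groups (189.2 to 298.7 FPKM), and the points of the 2 labels overlap for each factor.

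IRF1 (ENSSSCG00000014277, chromosome 2 from 140229793 to 140252687 in the table's coordinates, protein-coding) was at 189.2, 214.6 and 224.8 FPKM in wild type replicates 1, 2 and 3. It was at 216.9, 271.4 and 298.7 FPKM in leptin transgenic replicates 1, 2 and 3. Leptin transgenic replicates 2 and 3 lay above every wild type library, while replicate 1 lay between wild type replicates 2 and 3, so the groups overlapped. After median-of-ratios scaling replicate 1 was the lowest of the 6 libraries, at 198.6 against 209.1 to 219.3 in the wild type. The means were 209.5 ± 18.3 and 262.3 ± 41.7 FPKM (SD, n = 3). The log2 fold change, leptin transgenic minus wild type on the log2(FPKM + 1) scale, was 0.31 (standard error 0.17, 95% interval -0.075 to 0.70, adjusted p = 0.993, limma), and the exact permutation p was 0.2, two-sided. IRF1 ranked above 92.1% of all genes tested by log2 fold change. The IRF1 difference ranged from 0.21 without leptin transgenic replicate 3 to 0.44 without leptin transgenic replicate 1, and was 0.25 with median-of-ratios scaling.

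IRF2 (ENSSSCG00000015782, chromosome 15 from 52135058 to 52233016) was the steadiest of the 4, with a highest value 1.35 times its lowest. It was at 81.6, 104.7 and 92.3 FPKM in the wild type libraries and at 86.7, 110.1 and 100.7 FPKM in the leptin transgenic libraries, in replicate order. The groups interleaved completely, and the means were 92.9 ± 11.6 and 99.2 ± 11.8 FPKM (SD, n = 3). The log2 fold change was 0.094 (95% interval -0.28 to 0.47, adjusted p = 0.993, limma). It was 0.0056 without wild type replicate 1, 0.016 without leptin transgenic replicate 2, 0.18 without wild type replicate 2, 0.19 without leptin transgenic replicate 1 and 0.029 with median-of-ratios scaling.

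IRF3 (ENSSSCG00000003178, chromosome 6 from 50430670 to 50436164) was at 114.0, 130.0 and 87.7 FPKM in the wild type libraries and at 98.3, 121.9 and 84.4 FPKM in the leptin transgenic libraries. Both groups held a high and a low library, and they overlapped, with means of 110.6 ± 21.4 and 101.6 ± 19.0 FPKM (SD, n = 3). The log2 fold change was -0.12 (95% interval -0.59 to 0.35, adjusted p = 0.993, limma). It was 0.0059 without wild type replicate 2 and 0.0047 without leptin transgenic replicate 3, so no direction can be given. It was -0.28 without wild type replicate 3, -0.26 without leptin transgenic replicate 2, -0.07 without both replicate 1 libraries and -0.18 with median-of-ratios scaling. At its end of higher coordinates, the IRF3 locus overlaps by 1139 bp that of BCL2L12, an apoptosis gene. BCL2L12 was at 2.76 to 4.16 FPKM, and whether reads were counted by strand is not given in the sources used here.

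IRF5 (ENSSSCG00000016573, chromosome 18 from 20747731 to 20760161) was at 128.7, 184.0 and 173.3 FPKM in the wild type libraries and at 173.9, 192.1 and 144.9 FPKM in the leptin transgenic libraries. Wild type replicate 1 and leptin transgenic replicate 3 were the low libraries, the remaining 4 were close together, and the groups overlapped. The means were 162.0 ± 29.3 and 170.3 ± 23.8 FPKM (SD, n = 3), a log2 fold change of 0.079 (95% interval -0.36 to 0.52, adjusted p = 0.993, limma). The IRF5 difference was -0.078 without wild type replicate 1, -0.012 without leptin transgenic replicate 2 and -0.097 without both replicate 1 libraries. It was 0.18 without wild type replicate 2, 0.14 without wild type replicate 3, 0.19 without leptin transgenic replicate 3 and 0.013 with median-of-ratios scaling.

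By genotype label, 0 of the 4 factors passed an adjusted p of 0.05 in limma, against 0.00932% of all genes tested, and 0 passed an unadjusted p of 0.05, against 3.18%. For 0 of the 4 did the 3 libraries of one label lie wholly apart from the other 3, against 7.63% of all genes tested. The median log2 fold change was 0.087 over the 4 factors, beside 0.059 over all genes tested, and 0.021 beside 0.002 with median-of-ratios scaling. The 95% intervals leave room for changes of up to 0.70 (IRF1), 0.47 (IRF2) and 0.52 (IRF5) upward and 0.59 downward (-0.59, IRF3) on the log2 scale.

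**Figure D2:**
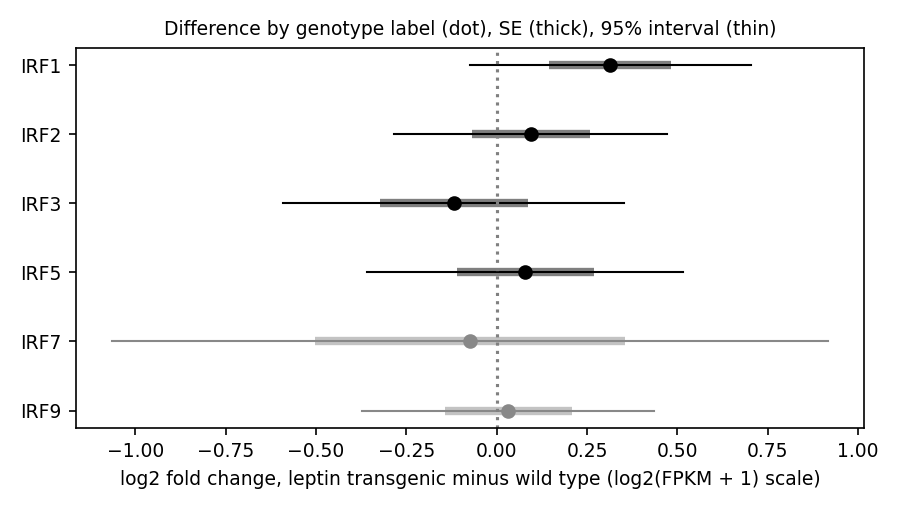
Log2 fold change of each factor, leptin transgenic minus wild type, on the log2(FPKM + 1) scale, as a dot with its standard error (thick bar) and 95% interval (thin bar) from limma with 3 libraries per label. Each interval includes 0, that of IRF1 from -0.075 to 0.70, and the widest is that of IRF7, from -1.07 to 0.92.

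Because IRF1 and IRF2 compete for the same sites, their ratio within each library was compared as well, a quantity in which the scaling between libraries cancels. The IRF1 to IRF2 ratio of FPKM was 2.32, 2.05 and 2.44 in the wild type libraries and 2.50, 2.47 and 2.97 in the leptin transgenic libraries, in replicate order. Every leptin transgenic library was above every wild type library, although 2.47 and 2.44 are nearly equal and leptin transgenic replicate 3 stood well above the rest. The mean log2 ratio was 1.17 ± 0.13 and 1.39 ± 0.15 (SD, n = 3), a difference of 0.22 (exact permutation test, two-sided p = 0.1, the smallest that 3 against 3 libraries allow). For comparison, the ratio to IRF2 was higher without overlap in the leptin transgenic libraries for 1.03% of the genes tested. That share counts only the higher direction, and all these ratios hold the same IRF2 values, so it is no measure of chance. The difference was 0.14 without leptin transgenic replicate 3, 0.15 without wild type replicate 2 and 0.28 without both replicate 1 libraries, whose LEP values go against their labels. If the labels of the replicate 1 libraries were exchanged, 2.50 would stand among the wild type and 2.32 among the leptin transgenic values, and the groups would overlap.

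**Figure D3:**
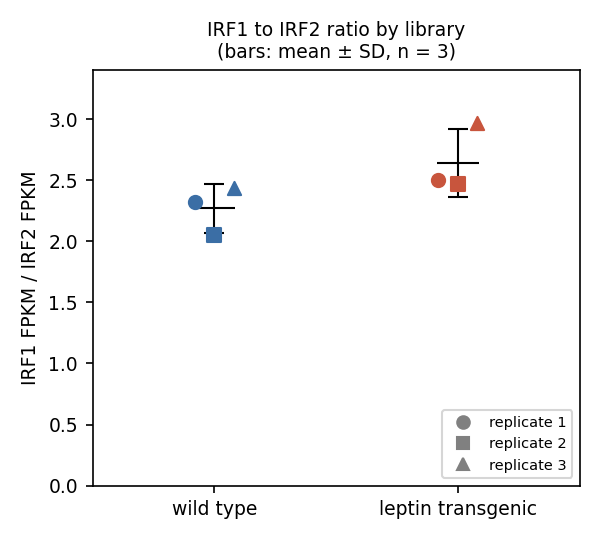
Ratio of IRF1 FPKM to IRF2 FPKM in each library, by genotype label, with replicate number as symbol and the mean and SD of 3 libraries as black bars. The wild type libraries lie between 2.05 and 2.44 and the leptin transgenic libraries between 2.47 and 2.97.

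IRF7, the factor that amplifies type I interferon, varied far more between libraries than the 4 factors. It was at 191.7, 246.6 and 131.3 FPKM in the wild type libraries and at 119.2, 359.0 and 124.1 FPKM in the leptin transgenic libraries. Its highest value was 3.01 times its lowest, against 1.35 to 1.58 times for IRF1, IRF2, IRF3 and IRF5. Its SD within labels was larger than that of 97.1% of the genes tested, while IRF2, IRF1, IRF5 and IRF3 exceeded 32.5%, 38.7%, 58.2% and 68.0%. IRF9, a subunit of the interferon-activated complex ISGF3, was at 169.3, 206.2 and 163.7 FPKM in the wild type libraries and at 166.9, 220.0 and 166.3 FPKM in the leptin transgenic libraries, a range as narrow as that of IRF2. The log2 fold changes of IRF7 (-0.074, adjusted p = 0.997, limma) and IRF9 (0.032, adjusted p = 0.997, limma) were within the spread between libraries. That of IRF7 turned to 0.23 without both replicate 1 libraries and to 0.199 without leptin transgenic replicate 1. It was 0.171 without leptin transgenic replicate 3, 0.137 without wild type replicate 2 and -0.59 without leptin transgenic replicate 2. That of IRF9 turned to -0.10 without leptin transgenic replicate 2 and to -0.033 with median-of-ratios scaling. The IRF9 difference was -0.00685 without wild type replicate 1, 0.135 without wild type replicate 2 and -0.0311 without wild type replicate 3. IRF4 was not analysed here.

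The libraries also differed in interferon-stimulated genes as a group. The mean log2 deviation of 32 such genes (IRF7 and IRF9 left out) from their own 6-library means was 0.17, 0.80 and -0.52 in the wild type libraries and -0.54, 0.28 and -0.20 in the leptin transgenic libraries. IRF3 lay above its own mean in the same libraries as this group, wild type replicates 1 and 2 and leptin transgenic replicate 2, with deviations of 0.12, 0.31 and 0.22. In the other libraries it lay below its mean, with deviations of -0.25, -0.09 and -0.31. IRF1 followed another order, with its highest deviation of 0.36 in leptin transgenic replicate 3, where the interferon-stimulated genes were below their means, and -0.12 in wild type replicate 2, where they were highest. IRF2 and IRF5 were lowest in wild type replicate 1, at -0.22 and -0.35, and highest in leptin transgenic replicate 2, at 0.20 and 0.22. All 4 factors were above their means in leptin transgenic replicate 2. Of 34 tested interferon-stimulated genes, 29 had a log2 fold change below 0 (85.3%, beside 36.9% of all genes tested). Only EIF2AK2 passed the unadjusted p in limma (1 of 34, beside 3.18% of all genes tested), and 0 passed the adjusted p. These are descriptions of 6 libraries, and the part of the interferon response in the values of the factors was not tested.

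**Figure D4:**
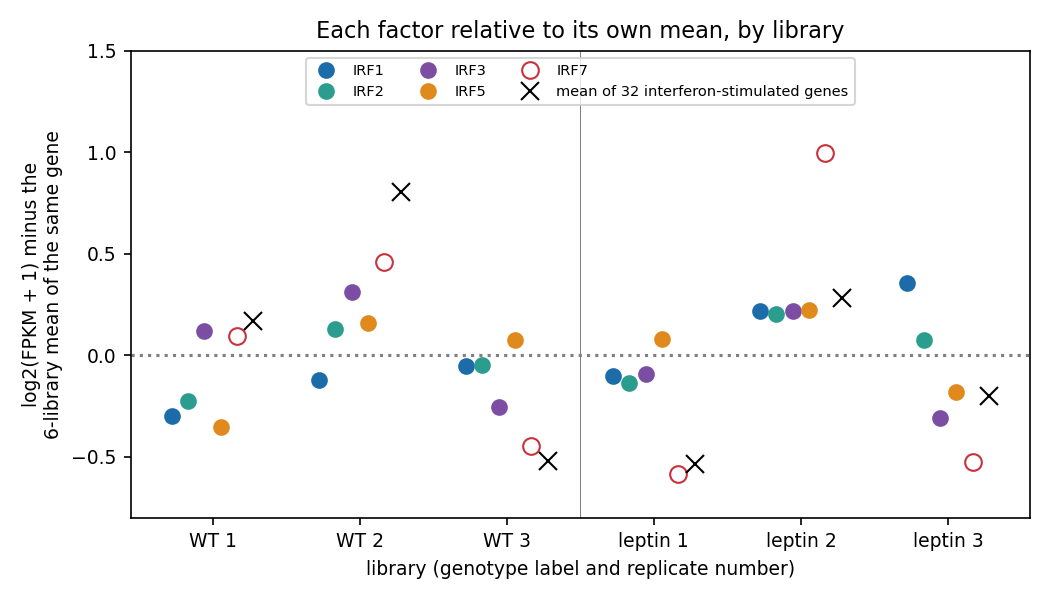
Log2(FPKM + 1) of IRF1, IRF2, IRF3, IRF5 and IRF7 in each library minus the 6-library mean of the same gene, with the mean deviation of 32 interferon-stimulated genes as crosses (WT, wild type; points set side by side within a library). IRF7 and the interferon-stimulated genes spread from -0.58 to 0.999 and from -0.54 to 0.80, and the 4 other factors stay between -0.35 and 0.36.

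Of the 25 sensors, adaptors and kinases listed upstream of IRF3 and IRF5, 22 were tested. In limma, 0 passed the adjusted p (0.00932% of all genes tested) and 0 the unadjusted p of 0.05 (3.18%). Their median log2 fold change was 0.050, beside 0.059 over all genes tested, and turned to -0.014 with median-of-ratios scaling. MYD88, the adaptor through which Toll-like receptors reach IRF5, was at 249, 255 and 166 FPKM in the wild type libraries and 166, 257 and 190 FPKM in the leptin transgenic libraries. MYD88 was thus high in the 3 libraries in which IRF3 was high. TLR4, the lipopolysaccharide receptor, had the same 3 high libraries, with 78.2 and 114.4 FPKM in wild type replicates 1 and 2 and 53.8 FPKM in leptin transgenic replicate 2, against 22.0 to 28.2 FPKM elsewhere. UNC93B1, which carries nucleic acid-sensing Toll-like receptors to endosomes, ranged from 43.2 to 122.8 FPKM. TBK1 and TICAM1 were not analysed here.

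Interferon receptor signalling, which induces IRF1, was represented by 9 tested genes of 13 listed, with 0 past the adjusted p (0.00932% of all genes tested), 0 past the unadjusted p (3.18%) in limma and a median log2 fold change of -0.11 (-0.17 with median-of-ratios scaling). The receptor kinase gene JAK1 was the 1 gene of the 9 without overlap (7.63% of all genes tested), at 76.5 to 78.2 FPKM in the wild type and 58.4 to 73.2 FPKM in the leptin transgenic libraries (log2 fold change -0.21, adjusted p = 0.993, limma). The kinase gene TYK2 (129 to 166 FPKM) and STAT2 (89.9 to 141 FPKM), which encodes a subunit of ISGF3, were highest in wild type replicate 2, a library in which IRF1 was below its mean.

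Among 13 rows for partners and coregulators of IRF proteins, 0 passed the adjusted p and 2 passed the unadjusted p in limma, both higher in the leptin transgenic libraries and without overlap (3.18% of all genes tested passed the unadjusted p and 7.63% did not overlap). BATF3, a dendritic cell factor, was among them, at only 0.885 to 1.51 and 1.54 to 2.87 FPKM (log2 fold change 0.47, adjusted p = 0.993, limma). SPI1, which encodes the IRF8 partner PU.1, was at 625 to 833 and 678 to 1062 FPKM and overlapped.

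Known targets were examined in 3 groups. Of the targets of IRF1 and IRF2, 18 rows were tested, with 0 past the adjusted p (0.00932% of all genes tested) and 0 past the unadjusted p (3.18%) in limma, 13 above 0 and 5 below 0 (72.2% above 0, beside 63.1% of all genes tested). Their median log2 fold change was 0.14, and 0.073 with median-of-ratios scaling. The main row of TAP2 (ENSSSCG00000025173), a peptide transporter subunit, was at 332, 410 and 364 FPKM in the wild type libraries and 330, 479 and 558 FPKM in the leptin transgenic libraries, so that its 2 highest libraries were those of IRF1. B2M, the MHC class I light chain, was the most abundant target, at 4452 to 5752 FPKM (log2 fold change 0.16, adjusted p = 0.993, limma). The TAP1 row with the higher level had a log2 fold change of -0.013. It was at 553, 653 and 401 FPKM in the wild type libraries and 490, 499 and 577 FPKM in the leptin transgenic libraries. Its highest library was thus wild type replicate 2, in which IRF1 was below its mean. Of 9 tested targets of IRF8 with PU.1, 0 passed the adjusted p (0.00932% of all genes tested) and 0 the unadjusted p (3.18%) in limma. Their median log2 fold change was 0.17, beside 0.059 over all genes tested (0.11 beside 0.002 with median-of-ratios scaling). The cathepsin CTSS ranged from 182 to 268 FPKM in the wild type and from 217 to 297 FPKM in the leptin transgenic libraries. CTSC, a further cathepsin gene, ranged from 122.8 to 178 and from 133 to 164 FPKM, and CASP1, the inflammasome protease, from 52.9 to 98.4 and from 74.8 to 111.0 FPKM, with log2 fold changes of 0.17 (CTSS), -0.055 (CTSC) and 0.31 (CASP1). Of 13 symbols listed as targets of IRF3 and IRF5, 6 were tested. Of these 6, 5 had a log2 fold change below 0 (83.3%, beside 36.9% of all genes tested), and the median was -0.12 (-0.18 with median-of-ratios scaling). IFIT1, IFIT2 and IFIT3 are also among the interferon-stimulated genes counted above, so this share is not separate from theirs. The unadjusted p was passed by 1 of the 6 (beside 3.18% of all genes tested) and the adjusted p by 0. That gene was TNF, at 18.4, 8.76 and 35.9 FPKM in the wild type libraries and 43.3, 47.5 and 46.6 FPKM in the leptin transgenic libraries, without overlap, as for 7.63% of all genes tested (log2 fold change 1.29, adjusted p = 0.993, limma). The antiviral genes IFIT1 (475 to 1426 FPKM, log2 fold change -0.081) and IFIT2 (328 to 970 FPKM, -0.12) and the chemokine gene CCL5 (331 to 869 FPKM, -0.23) overlapped between labels.

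PBMC libraries can differ in cell composition, and in bulk RNA fewer cells of a type and less RNA per cell cannot be told apart. The summed FPKM of 10 B cell markers was 465 in wild type replicate 1, the library lowest in IRF5, and 651 to 858 in the other libraries. The next lowest sum, 651 FPKM, was that of leptin transgenic replicate 2, the library highest in IRF5. The 11 monocyte marker rows summed to 971, 544 and 457 FPKM in the wild type libraries and 607, 984 and 707 FPKM in the leptin transgenic libraries, highest in wild type replicate 1 and leptin transgenic replicate 2. LYZ and CD14, both highest in these libraries, carry the monocyte sum. CSF1R was instead highest in leptin transgenic replicate 1 (73.8 FPKM), so the sum does not speak for every monocyte marker. The 12 T cell markers summed to 1013 to 1383 and to 927 to 1580 FPKM by label, the 12 NK cell rows to 265 to 541 and 242 to 423 FPKM, and the 7 dendritic cell markers to 59.1 to 102 and 53.5 to 94.4 FPKM. The dendritic cell sum is carried by CCR7 and by GZMB, which is also in the NK cell sum, and was lowest in leptin transgenic replicate 2, where XCR1 (12.04 FPKM) and BATF3 (2.87 FPKM) were highest, so it cannot be read as a measure of dendritic cells. The 6 neutrophil markers summed to 3528 FPKM in wild type replicate 1 and to 414 to 1272 FPKM in the other libraries, with the granule genes MPO and ELANE not analysed here. The 7 platelet rows summed to 219 to 530 and 178 to 474 FPKM, and the 2 red cell genes to 25.1 to 217 and 21.8 to 102 FPKM. The part of cell composition in the levels of the 4 factors was not tested.

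Genes whose pattern over the 6 libraries was most like that of each factor were ranked by Pearson's r of log2(FPKM + 1), among 4291 named genes with a mean of at least 10 FPKM. For IRF1 they were RHBDF2 (r = 0.984), LPCAT2 (r = 0.977) and LY9 (r = 0.952). For IRF2 they were P2RY12 (r = 0.973), NABP1 (r = 0.960) and TNPO3 (r = 0.941), the last being the neighbour of IRF5 on chromosome 18. For IRF3 they were TREML-2 (r = 0.982), C1orf162 (r = 0.981) and TGFBR1 (r = 0.977). For IRF5 they were SLA-DRB4, an MHC class II gene (r = 0.990), PSMA6 (r = 0.981) and NECAP2 (r = 0.975). SLA-DRB4 was at 6.28 and 9.41 FPKM in the 2 libraries low in IRF5 and at 17.4 to 22.0 FPKM in the others. Both genes of a pair come from the same 6 libraries, which may differ in cell composition. The r values are given as a description without a test.

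The 4 loci lie on 4 different chromosomes. TNPO3, 15134 bp from IRF5, had a log2 fold change of 0.048. Near IRF3, SCAF1 at 1234 bp had 0.10 and PRMT1 at 11792 bp had 0.19. CPT1C, at 25983 bp from IRF3, had the largest within 60 kb, 0.63 (adjusted p = 0.993, limma). The table's annotation places all 4 factors in both the nucleus and the cytoplasm, and marks IRF1, IRF3 and IRF5 for defence response to virus, a term held by 27 of the 3077 rows with a biological process. IRF1 and IRF3 share the term for positive regulation of interferon-beta production, held by 10 rows, and IRF3 and IRF5 share the Toll-like receptor pathway of KEGG, held by 52 of 2010 rows with a pathway.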

How the data were processed

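RNA-seq of PBMCs from 6 libraries, 3 per genotype label, was used as 1 deposited table of FPKM values. The submitters' processing notes list FastQC, STAR 2.5, Cuffnorm and DESeq 1.22.1, while the study's methods name Bowtie against an Ensembl transcriptome, RSEM and maSigPro, so which tools the authors ran to make the deposited FPKM is unclear, and the assembly behind the table's coordinates is not named in the sources used here. The table also lists location, annotation terms and the authors' own fold changes, p-values and false discovery rates, which were not used.

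Genes with at least 1 FPKM in at least 3 libraries (10735 of 11564) were compared on log2(FPKM + 1), a scale that understates changes of low genes, with limma 3.58.1 in R 4.3.3, without covariates, and Benjamini-Hochberg adjustment over all genes tested. Tests are two-sided, with exact permutation tests in SciPy 1.17.1. On simulated data for this comparison (10735 genes), 91 of 200 genes changed by 1 on the log2 scale and 180 of 200 changed by 2 were recovered. False calls numbered 6 and 0. Noise was drawn separately for each gene, so differences that many genes of a library share were not simulated. FPKM sums were 444888 to 449653 in the wild type and 467276 to 503140 in the leptin transgenic libraries, without overlap.

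The factors and gene lists were chosen with earlier results of these data known. Of the 4000 rows without a symbol, 1504 were named by gene ID from a RefSeq-based table of Sscrofa11.1. Named genes were the factors, of each list those with an unadjusted p under 0.05 and the 3 with the highest mean FPKM, and the 3 genes most like each factor. Neighbouring genes, JAK1 and XCR1 were named after their values were seen, and some genes that the rule names are not reported here. Alternatives were a pseudocount of 0.1, other filters, median-of-ratios scaling, no variance moderation, a replicate block and leaving out libraries.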

Additional observations from a re-analysis of the deposited data

How the results depend on the processing

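Under 13 alternatives per factor, 0 of the 4 factors passed the adjusted p in any, and the adjusted p of limma ranged from 0.634 to 1 for IRF1, 0.886 to 1 for IRF2, 0.70 to 1 for IRF3 and 0.851 to 1 for IRF5. IRF1 stayed above 0 in 13 of 13 (0.215 to 0.445, lowest unadjusted p 0.0432 in limma without leptin transgenic replicate 1) and IRF2 in 13 of 13 (0.00558 to 0.187). The IRF3 difference turned to 0.00592 without wild type replicate 2 and to 0.00471 without leptin transgenic replicate 3, and reached -0.276 at its lowest. That of IRF5 turned to -0.0775 without wild type replicate 1, to -0.0121 without leptin transgenic replicate 2 and to -0.0974 without both replicate 1 libraries, an alternative chosen after seeing the data, and reached 0.19 at its highest; the cause was not tested. The IRF1 to IRF2 log2 ratio difference was 0.135 to 0.275 in 10 alternatives, of which leaving out libraries, scaling and the block cannot make separate groups overlap. Over all genes, 341 passed the unadjusted p, against 247 to 846 with 1 library left out (846 without wild type replicate 3; the cause was not tested). Median-of-ratios scaling moved the median log2 fold change of all genes from 0.059 to 0.002.

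Libraries with the same replicate number did not deviate together (correlations -0.284, 0.135 and -0.00728). The labels name no pairing, and with 3 libraries per label these correlations cannot show that there was none. With a replicate block, 384 genes passed the unadjusted p and 2 the adjusted p, and 0 of the 4 factors passed. The differences of IRF1, IRF2, IRF3 and IRF5 (0.314, 0.0942, -0.119 and 0.0789) cannot change under a block with 1 library of each label. Without counts, what depth limits cannot be stated.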
